A study of Homo sapiens with 10 samples.

Results

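The genes described here make and remove N6-methyladenosine (m6A), the commonest internal modification of messenger RNA, and the question was where their own transcripts carried it in 5 human colon cancer cell lines. There were 6 writer genes, METTL3, METTL14, WTAP, VIRMA, RBM15 and ZC3H13, and 2 eraser genes, FTO and ALKBH5. A peak was taken as a member when its summit lay in a fixed hg19 span of one of the 8 genes. This rule uses position and no measured value, but members were chosen with earlier results of these data known. The rule gave 60 of the 38106 deposited peaks. The HCT116 list held 18 of them, HT29 15, COLO205 14, COLO320DM 13 and HCT15 none (0).

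The data are from MeRIP-seq, in which an antibody pulls fragments with m6A out of fragmented RNA, the immunoprecipitation (IP), for comparison with the unselected fragments, the input. The labels describe 1 IP and 1 input for each line, from about 300 µg of total RNA cut to about 100 nt, with 10% kept as input. All 5 lines are established human cancer lines, grown alike, with no treatment in the labels. The label for tissue is colon in COLO205 and COLO320DM and colorectum in the other lines. With 1 library per line there was no replicate spread, and no test between lines was made. Differences below compare these libraries. Peak lists hold no expression levels, so the labelled tissue could not be checked against marker genes.

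Methylation is laid down on nascent RNA in the nucleus. METTL3 is the catalytic subunit and METTL14 its RNA-binding partner, WTAP brings the pair to nuclear speckles, VIRMA acts as a scaffold, RBM15 binds RNA and recruits the complex, and ZC3H13 holds it in the nucleus. FTO and ALKBH5 are dioxygenases that take the methyl group off. In most transcripts m6A sits in long exons and near the stop codon.

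The HCT15 list was short, with 917 peaks, and the others held 8832 to 9998. For the 4 lists with members, the IP reads over each summit and the local input background were solved from the authors' fold and −log10 p. IP depth was 1.38 to 2.99 M reads (M for mega) and input depth 2.24 to 5.41 M. An input-covered peak is one whose local background came to at least 1 input fragment. Peaks carry no strand and no hg19 annotation was used, so exons, introns and UTRs are not assigned. Positions are given from the 5′ and 3′ edges of the spans, which the rule rounds to the nearest kb.

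Almost all peaks were in writer genes, though not in every writer gene. The writer spans, 247 kb in all, held 59 peaks, and the eraser spans, 440 kb in all, held 1. FTO alone makes up 412 kb of the eraser total. Spans take in introns as well as exons, and no peak density over the series was set beside these counts. ZC3H13 alone had 31, followed by RBM15 with 13, WTAP with 8, METTL14 with 4, VIRMA with 3 and FTO with 1. METTL3 and ALKBH5 had none in any list. A gene with no peak has no value in these files, so its methylation was not measurable here.

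**Figure D1:**
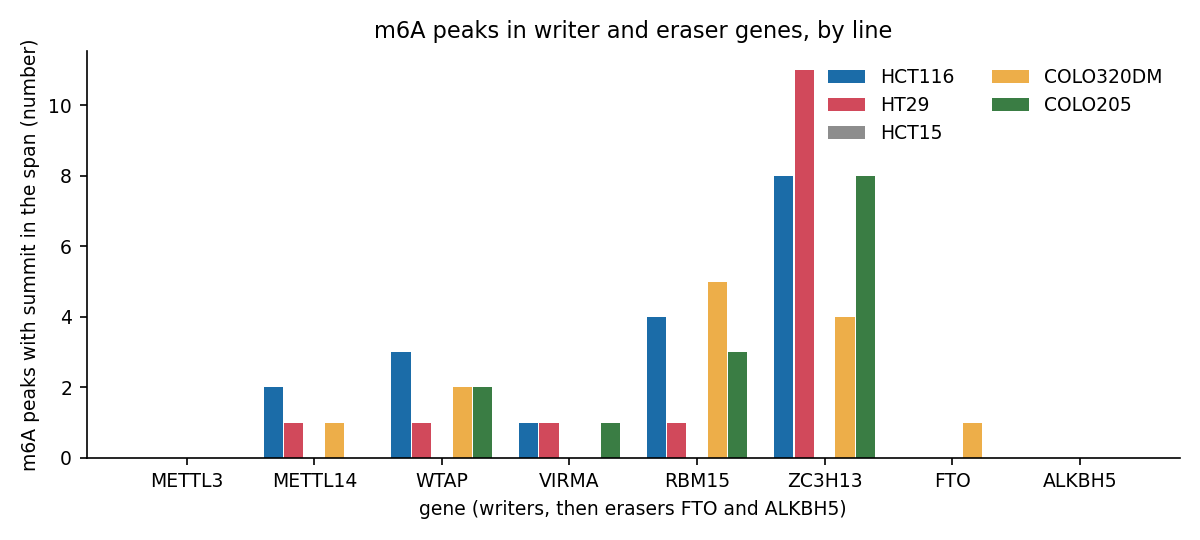
Number of m6A peaks (y axis) with a summit in the span of each gene (x axis), by line (bar colour); every bar is 1 library. ZC3H13 had 11 peaks in HT29, 8 in HCT116, 8 in COLO205 and 4 in COLO320DM, and HCT15 had 0 in all 8 genes.

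The 60 peaks merged into 22 regions, of which 15 were held by 3 or more lists, 2 by 2 and 5 by 1. Over all 22315 regions of the series, 18.1% were held by 3 or more lists. Peaks of 1 gene share a transcript, and ZC3H13 gave 8 of the 15, but the other genes still had 7 of their 12 regions in 3 or more lists. The count was 5 of 21 (23.8%) without the HCT116 list, 8 of 20 (40%) without HT29 and 7 of 22 (31.8%) without COLO205. It was 10 of 20 (50%) without COLO320DM and 15 of 22 (68.2%) without HCT15. In the same order, the share over all regions was 12.5%, 12.9%, 11.3%, 15.6% and 16.9%. Among peaks with a −log10 q of 5 or more the count was 9 of 19 regions. The share over all regions at that cut is not given here.

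Input coverage moved with sharing. Input covered 13 of 14 member peaks in COLO205, against 51.8% of the list, and 11 of 13 in COLO320DM, against 61.8%. It covered 14 of 18 in HCT116, against 58.1%, and 10 of 15 in HT29, against 39.0%. Among regions whose peaks were mostly input-covered, 14 of the 16 in these genes were held by 3 or more lists, against 29.7% over the series. Among input-poor regions it was 1 of 6, against 9.76%. The part of input coverage in the sharing was not tested.

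Peak by peak, 17 of 18 member peaks of HCT116 overlapped a peak of another list, against 61.6% of that list. In HT29 it was 13 of 15, against 63.7%. In COLO320DM it was 11 of 13, against 52.9%, and in COLO205 14 of 14, against 65.1%. The 2 COLO320DM peaks found in no other list were in RBM15 and FTO, and the 2 of HT29 were both in ZC3H13.

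In the 15 shared regions the distance between the outermost summits was 3 to 181 nt, with a median of 31 nt, against 42 nt over all regions in 3 or more lists. It was within 50 nt in 11 of the 15, against 55.8%. Regions were merged by overlap of narrow peaks, which itself keeps summits near each other. Member peaks rested on a median of 29 IP reads in COLO320DM, against 12 in the list, and 17 in HCT116, against 11. The median was 16 in COLO205, against 9, and 14 in HT29, against 8.

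ZC3H13, the zinc finger subunit that retains the writer complex in the nucleus, had the most peaks of these genes. Its span on chromosome 13, from 46528000 to 46627000, is 99 kb and is read from high to low coordinates. It held 11 peaks in HT29, 8 in HCT116, 8 in COLO205 and 4 in COLO320DM. Of the 100-kb windows with any peak, 0.708% held 11 or more in HT29 and 1.45% held 8 or more in HCT116. The share was 1.36% for 8 or more in COLO205 and 9.64% for 4 or more in COLO320DM. ZC3H13 was set beside the windows as the gene with the most peaks in all, which by itself favours small shares. The windows were not fitted to genes. The first 32.3 kb and the last 13.9 kb of the span had no summit in any list.

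**Figure D2:**
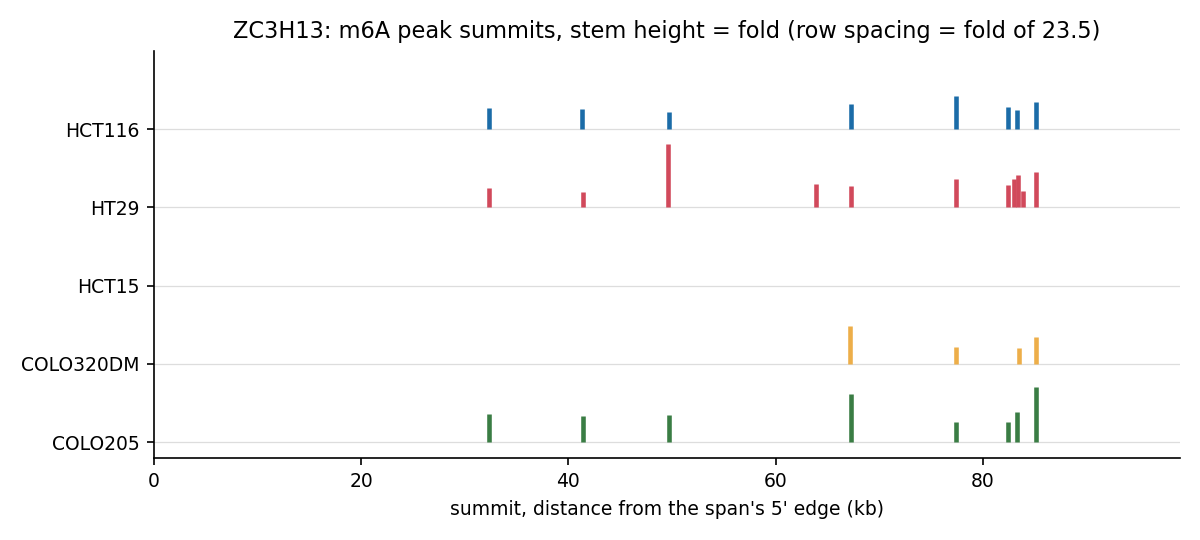
Summits of the m6A peaks in ZC3H13 (x axis, distance from the 5′ edge of the span in kb) in the 5 lists (rows); stem height is the authors' fold, on 1 scale for all rows. COLO320DM had peaks in 4 of the 10 regions, all of them over 67 kb from the 5′ edge, and HCT15 had none.

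Numbered from the 5′ edge, regions 5, 6, 8 and 10 were held by HCT116, HT29, COLO320DM and COLO205. Region 6, at 46549447 to 46549931, was the most deeply read site of all 8 genes. COLO320DM had 100 IP reads over a local input of 29 fragments there, and a fold of 5.11 (95% interval 4.17 to 6.21). HCT116 had 82 reads over 12 fragments and a fold of 9.89 (7.89 to 12.3). COLO205 had 81 over 23 and a fold of 5.99 (4.77 to 7.42), and HT29 60 over 9 and a fold of 8.51 (6.53 to 10.9). COLO320DM thus had the most IP reads and the lowest fold at this site. HCT116 lay above COLO205 and COLO320DM with no overlap, and HT29 above COLO320DM. These intervals are exact Poisson limits on the IP reads with the background held fixed. They cover counting error of the IP reads only and leave out that of the input. Intervals that lie apart therefore do not show a difference beyond counting error. The 4 summits lay within 12 nt of each other, and the peaks were 463 to 472 nt wide.

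Region 10, at 46541711 to 46542067, was the shared site nearest the 3′ edge. COLO205 had a fold of 16.6 there (12.1 to 22.2) and HT29 one of 10.5 (7.22 to 14.7). HCT116 had 8.10 (5.89 to 10.9), and COLO320DM had 7.94 (5.89 to 10.5). COLO205 lay above HCT116 and COLO320DM with no overlap. It had 43 IP reads over 3 input fragments, against 42 over 7 in HCT116 and 48 over 8 in COLO320DM.

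Region 5, at 46559464 to 46559913, had a fold of 14.4 in COLO205, 11.5 in COLO320DM, 7.53 in HCT116 and 6.32 in HT29. COLO205, at 10.8 to 18.7, lay above HCT116 (5.41 to 10.2) and HT29 (4.24 to 9.10). Region 8, at 46543405 to 46544078, was the widest region of the set. HT29 had 2 peaks in it, with folds of 9.61 and 8.39, where COLO205 had 1 peak of 610 nt with a fold of 8.94, HCT116 1 of 383 nt with 5.77 and COLO320DM 1 of 674 nt with 4.70.

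Regions 1, 2, 3 and 7 were held by HCT116, HT29 and COLO205 and not by COLO320DM. Region 3, at 46577281 to 46577491, had the highest fold of all 60 peaks, 19.04 in HT29 (12.0 to 28.9), against 5.27 in HCT116 (3.04 to 8.60) and 8.28 in COLO205 (5.27 to 12.5). Its IP reads per M reads of the library were 9.41 in HT29, 10.1 in HCT116 and 7.03 in COLO205. Its local input was 0.15 fragments in HT29 and 3 in each of HCT116 and COLO205. The IP levels of the 3 lines were close. The HT29 background, under 1 fragment, comes from a wider window, and its part in the fold was not tested. Region 7, at 46544545 to 46544629, was the most even of the shared sites, with folds of 6.67 in HCT116, 6.75 in HT29 and 5.92 in COLO205 on 15 to 18 reads.

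The remaining ZC3H13 sites rested on 6 to 12 reads. Region 1, at 46594598 to 46594706, had folds of 6.19 in HCT116, 5.93 in HT29 and 8.38 in COLO205, and region 2, at 46585572 to 46585699, had 6.15, 4.75 and 7.73. Regions 4 and 9 were in the HT29 list only, each on 7 reads, with folds of 6.93 and 4.80.

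**Figure D3:**
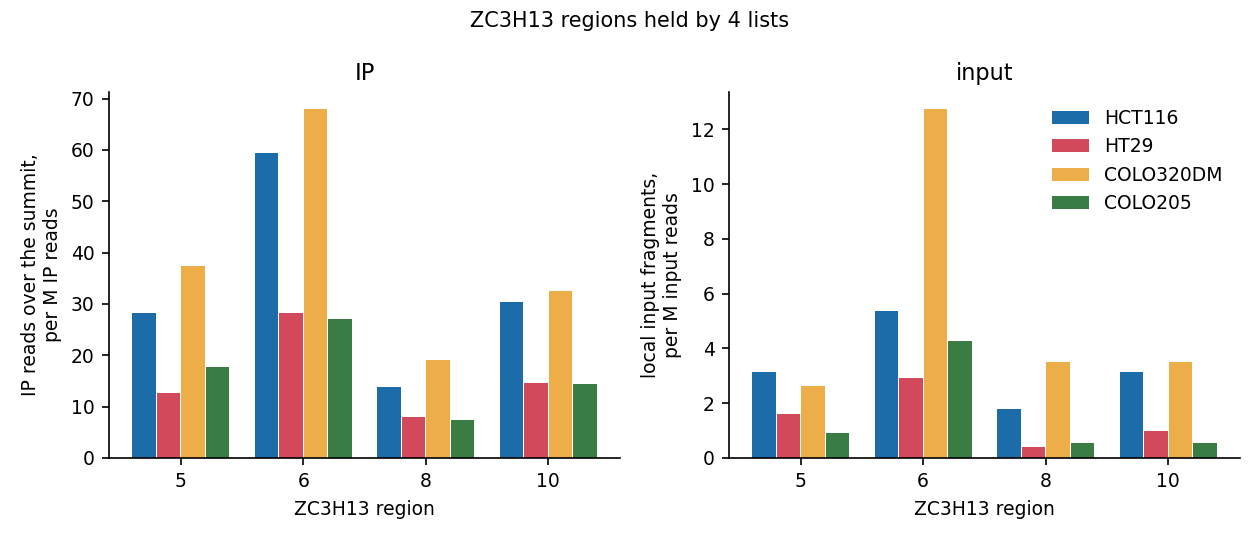
IP reads over the summit per M IP reads (left) and local input fragments per M input reads (right) in the 4 ZC3H13 regions held by HCT116, HT29, COLO320DM and COLO205 (bars, 1 library each). HCT116 and COLO320DM were above HT29 and COLO205 in every region and on both scales.

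Scaled to depth, per M reads of a library, the lines fell in a set order at these sites. In region 6 the IP gave 59.4 reads per M in HCT116 and 67.9 in COLO320DM, against 28.2 in HT29 and 27.1 in COLO205. The local input gave 5.35 and 12.7 fragments per M in HCT116 and COLO320DM, against 2.90 and 4.25 in HT29 and COLO205. HCT116 and COLO320DM were above HT29 and COLO205 in 5 of the 5 member regions held by these 4 lists, for IP and for input. Over the 1532 such regions of the series the same held in 82.0% for the IP and 57.2% for the input. The order is therefore that of most shared regions in these libraries and is not particular to ZC3H13.

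RBM15, an RNA-binding protein that brings the writer complex to its targets, had its peaks in a compact block. The span is on chromosome 1 from 110881000 to 110890000, read from low to high, and is 1699 nt longer than the RefSeq gene. All 13 peaks had summits 1.26 to 3.77 kb from the 5′ edge, in 5 regions. COLO320DM had a peak in each of the 5, HCT116 in 4, COLO205 in 3 and HT29 in 1.

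Region 5 of RBM15, at 110884675 to 110884806, was the site held by 4 lists. Its fold was 8.59 in COLO205, 7.32 in COLO320DM, 7.04 in HT29 and 4.90 in HCT116, on 14, 30, 14 and 19 reads. The intervals of all 4 overlapped. Region 2, at 110882776 to 110883116, had folds of 5.32 in HCT116, 4.22 in COLO320DM and 6.02 in COLO205, and region 3, at 110883555 to 110883854, had 3.92, 3.96 and 4.75. In region 3 the 3 summits lay within 3 nt.

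Among the RBM15 peaks of COLO320DM, those of regions 1 to 3 had folds in the lower part of the list on 26 to 36 reads, at percentiles of 2.67, 29.9 and 27.3. Region 1, found in COLO320DM alone at 110882181 to 110882263, had 29 IP reads over 15 input fragments and a fold of 2.80. Region 2 had 36 reads over 12 fragments in COLO320DM, against 24 over 6 in HCT116. Region 4, at 110884142 to 110884412, was held by HCT116 and COLO320DM with folds of 5.58 and 5.51.

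WTAP, the adaptor that places the METTL3 and METTL14 pair in speckles, had 3 peaks in HCT116, 2 in COLO320DM, 2 in COLO205 and 1 in HT29. Its span is on chromosome 6 from 160147000 to 160178000, read from low to high. RefSeq places SOD2 across the same stretch on GRCh38.p14, so these peaks may belong to either gene. Region 2, at 160169295 to 160169497 and 8.53 to 8.64 kb before the 3′ edge, differed most among the WTAP sites. HCT116 had a fold of 10.9 (6.53 to 17.4), COLO320DM one of 9.25 (4.87 to 16.3) and HT29 one of 3.74 (2.12 to 6.21). HCT116 lay above HT29 with no overlap, with 16 reads over 0.9 input fragments against 13 over 4.

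Region 3 of WTAP, at 160176383 to 160176543, lay 1.49 to 1.57 kb before the 3′ edge. Its fold was 7.50 in COLO320DM, 4.14 in COLO205 and 3.62 in HCT116, with overlapping intervals. Region 1, at 160147266 to 160147380, lay within 0.342 kb of the 5′ edge, with folds of 8.31 in HCT116 and 7.30 in COLO205. The span is 1373 nt longer than the RefSeq gene, so it is not known whether region 1 is inside WTAP.

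METTL14, the partner that completes the RNA-binding face of the catalytic pair, was marked near its 3′ edge. The span is on chromosome 4 from 119606000 to 119633000, read from low to high, and the RefSeq gene is 3039 nt longer. Region 2, at 119631286 to 119631427, lay 1.61 to 1.64 kb before the edge. Its fold was 8.66 in HCT116, 6.88 in HT29 and 4.76 in COLO320DM, on 13, 8 and 13 reads, and the intervals overlapped. HCT116 also had a peak at 119612650 to 119612726 with a fold of 4.82, on 4 reads at the lowest background of the list.

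VIRMA, the scaffold linked to methylation near stop codons, had 1 region, held by HCT116, HT29 and COLO205. It was at 95541304 to 95541456 on chromosome 8, in a span from 95499000 to 95566000. RefSeq puts the divergent transcript VIRMA-DT beyond the high end, so the gene is read from high to low and the region lay 24.6 kb from the 5′ edge. The fold was 7.48 in COLO205, 5.39 in HCT116 and 5.34 in HT29, on 23, 21 and 19 reads. The 3 summits fell within 10 nt and the intervals overlapped.

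**Figure D4:**
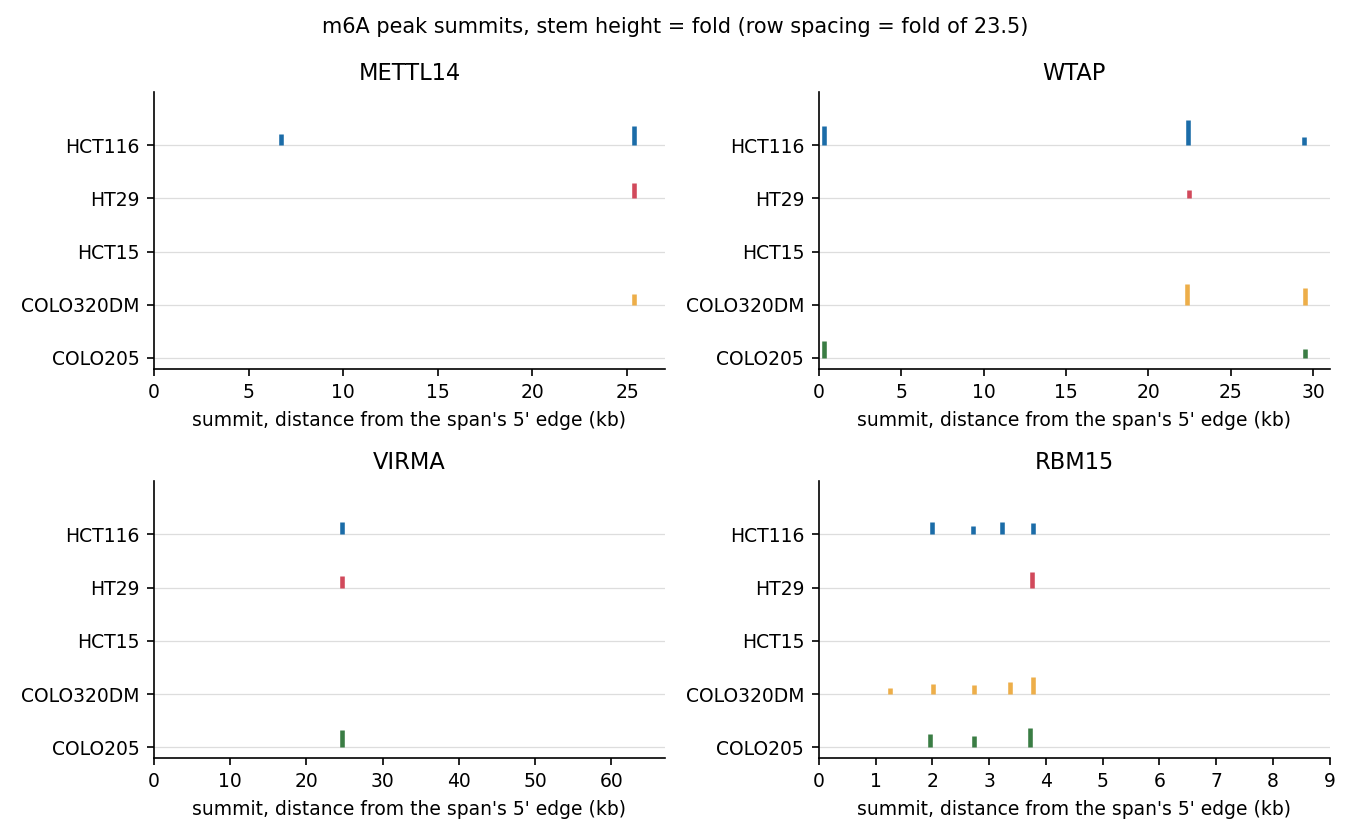
Summits of the m6A peaks in METTL14, WTAP, VIRMA and RBM15 (x axis, distance from the 5′ edge of each span in kb) in the 5 lists (rows); stem height is the authors' fold on 1 scale. The RBM15 summits lie 1.26 to 3.77 kb from the 5′ edge and METTL14 region 2 lies 1.61 to 1.64 kb before the 3′ edge.

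METTL3, the catalytic methyltransferase, had no peak in its span on chromosome 14 from 21966000 to 21980000, which RefSeq shows overlapping TOX4. The nearest summit outside was 11.5 kb beyond the 5′ edge, in COLO320DM, with a fold of 4.98. In the other lists the nearest summit was at least 66.3 kb away. ALKBH5, a nuclear demethylase, had none on chromosome 17 from 18086000 to 18114000, and the nearest summit was 53.3 kb beyond its 3′ edge, in HCT116. FTO, the other demethylase, has the longest span, 412 kb on chromosome 16 from 53737000 to 54149000, read from low to high. Its single peak, in COLO320DM at 53865864 to 53865948, had a fold of 3.82 (1.55 to 9.33) on 3 reads, 129 kb from the 5′ edge. RefSeq lists 3 genes that overlap FTO.

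The folds of the member peaks stood around or above the middle of their lists. The median was 7.61 in COLO205, against 5.65 in its list, and 6.88 in HT29, against 5.67. It was 5.96 in HCT116, against 5.08, and 5.11 in COLO320DM, against 5.23. Above the list median were 12 of 14 peaks in COLO205, 11 of 15 in HT29, 14 of 18 in HCT116 and 6 of 13 in COLO320DM. The fold includes a pseudocount of 1, so it understates enrichment where the input is low.

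**Figure D5:**
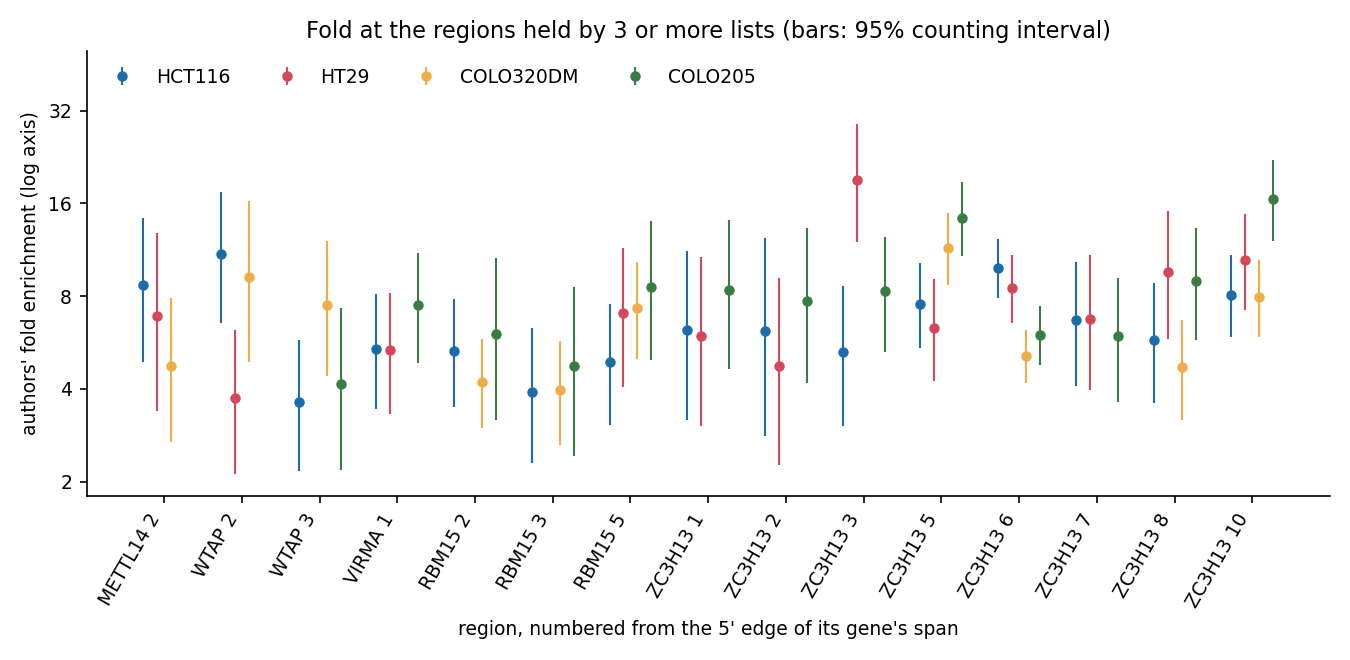
The authors' fold enrichment (y axis, log scale) in the 15 regions held by 3 or more lists (x axis, numbered from the 5′ edge of each gene's span), 1 point per line, with exact 95% Poisson intervals on the IP reads. The HT29 point of ZC3H13 region 3, at 19.04, is the highest, and most intervals within a region overlap.

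Across the 15 shared regions, COLO205 had the highest fold in 8 of the 13 it held, against 40.3% over the series. HT29 had it in 3 of 12, against 29.8%, HCT116 in 3 of 15, against 23.3%, and COLO320DM in 1 of 10, against 22.7%. COLO205 had the deepest IP and input, whose part in this was not tested. Ranked by −log10 p, the highest line was the same in 10 of the 15. Of the 60 pairs of lines within these regions, 9 had fold intervals that did not overlap, against 8.49% over the series. Of the 9, 8 were in ZC3H13 and 1 in WTAP. The intervals leave out the counting error of the input. They also narrow as reads rise, and member peaks had a higher median of IP reads than their lists. The part of read number in the count of 9 was not tested.

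The presence of each line in the 15 regions was set beside its share of all regions in 3 or more lists. HCT116 held 15, against 87.3%, COLO205 13, against 92.1%, HT29 12, against 83.8%, and COLO320DM 10, against 67.8%. HCT15 held 0, against 15.9%. A peak missing from its short list does not show missing m6A.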

How the data were processed

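The 5 deposited peak lists, 1 per IP library, were used as given. Per the submitters' processing notes, reads were handled with BWA, MACS2, cutadapt and FastQC on hg19, with no version or parameter, and the control is not given in the sources used here. The authors' deposited columns are a fold (a ratio of summit to local background), a −log10 p, a −log10 q and a score, the −log10 q times 10. Spans came from the stated rule, and coordinates count from 1. Strand, gene length and neighbours came from RefSeq (GRCh38.p14) by symbol for 8 of 8 genes, with no coordinates of that build.

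IP reads and background were solved from fold and −log10 p under the MACS2 model, (reads + 1) / (background + 1) and a Poisson tail, within 0.001. All peaks of the 4 lists with members had a whole solution. On simulated peaks 901 of 901 were recovered for HCT116, 966 of 967 for HT29, 905 of 905 for COLO320DM and 962 of 963 for COLO205. The simulated peaks were made with the same formulas, so they check the solving step and not the model. HCT15 held no member and was not solved. Depths assume a genome of 2.7 Gb and that the control was the line's input. They also take the fragment length to be the shortest peak of the list, 73 nt in COLO320DM and 75 nt in the other solved lists. Input depth further rests on a fitted ratio of IP to input. Backgrounds under 1 fragment come from wider windows, as do some higher ones that are not whole, such as 4.2 in HCT116 at RBM15 region 4. An input-covered peak can therefore rest on a wider window. Peaks on chromosomes 1 to 22, X and Y merged at 1 nt of overlap; merging gave the count of bedtools 2.31.1 on simulated intervals.

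No test between lines was made. All 8 genes, every region in 3 or more lists and the highest region of each gene are named; the few remaining regions are also named. Members and alternatives were chosen with earlier results of these data known. The input classes, depth-scaled order, interval pairs, summit distances over all regions and 100-kb windows were added after the values were seen. Other writer-complex genes were not analysed here. Scripts ran on scipy 1.17.1, matplotlib 3.10.9, pandas 2.3.3 and numpy 2.4.6 under Python 3.11.15.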

Additional observations from a re-analysis of the deposited data

How the results depend on the processing

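Of 57 alternatives, 44 kept their count within 1.5 times. Some of the 44 could not move, namely stricter cuts on the HCT15 list, which held no member, and leaving that list out. Counting any overlap with a span, or widening spans by 5 kb, gave the same 60 peaks. A −log10 q of at least 5 left 49 and a fold of at least 4 left 54. With the 905 strongest peaks of each list, 14 remained in all, 4 in HCT116, 3 in HT29, 4 in COLO320DM, 3 in COLO205 and 0 in HCT15. The shares of all peaks that pass these cuts are not given here. The counts therefore do not set the members apart from their lists. Regions in 3 or more lists numbered 9 of 19 at a −log10 q of at least 5, and 5 to 15 with a list left out. Regions in 1 list numbered 5, 12 with reciprocal overlap of 50%, 8 with summits within 100 nt, and 3 to 6 with a list left out. With a pseudocount of 0, 0 of the 60 peaks had a whole number of reads, so the model with 1 was kept. No paired analysis was possible because each line has 1 library and no replicate numbers. Low read counts limit single sites, and a missing peak carries no value.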
